A study of Mus musculus with 380 samples.

Results

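Oxidative phosphorylation is the main route by which mitochondria make ATP, and its machinery is built largely from proteins encoded in the nucleus. The genes described here were chosen by symbol from the expression matrix: rows of the Nduf a, b, c, s and v series, Sdha to Sdhd, and rows beginning Uqcr, Cox4 to Cox8 or Atp5, leaving out Cox6a2, Rik names and pseudogene names. The rule found 83 of 23420 rows. It used no measured value, but it was chosen with earlier results of these data known. By the complex they belong to, 35 encode subunits of complex I, 4 of complex II, 8 of complex III, 18 of complex IV and 15 of complex V. The other 3 match the rule by name without being core subunits: Cox7a2l is a factor that joins complexes III and IV into supercomplexes, Atp5s is factor B, a coupling factor, and Atp5sl is an assembly factor of complex I. The members lie on 19 chromosomes of the mm10 genome, with at most 7 on any chromosome.

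The libraries are Smart-seq2 RNA-seq, a full-length protocol for single cells, of T cells taken from B16F10 tumours, a transplantable melanoma of C57BL/6 mice. The mice were either labelled knockout (KO) for Il27ra, the gene of a receptor chain for interleukin-27, or wild type (WT), and the series concerns T cell genes induced by interleukin-27 in the tumour. There were 4 plates: KO-labelled CD8, WT CD8, KO-labelled CD4 and WT CD4, each with 94 single cells and 1 population well holding many cells. The titles carry 1 mouse code per genotype, so each group is 1 plate of 1 code, and genotype cannot be told apart from plate or animal, nor lineage from plate. No age, sex or tumour stage is used here, the treatment text speaks of CD8+ cells only, and the WT CD4 titles carry p2 where the other plates carry p1.

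In the respiratory chain, complex I takes electrons from NADH and complex II takes them from succinate. Complex III passes them to cytochrome c and complex IV hands them to oxygen. Complexes I, III and IV pump protons across the inner membrane, and complex V, the ATP synthase, uses the returning protons to make ATP. Activated T cells rely heavily on glycolysis while they divide, and mitochondrial capacity is a known feature of T cell persistence in tumours. The mitochondrial genome encodes further subunits, but the matrix held 0 rows of mitochondrially encoded genes, so the mitochondrially encoded part of complexes I, III, IV and V is not analysed here.

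Genes of this machinery share promoter features in textbook descriptions, among them sites for NRF1, GABP, YY1 and the estrogen-related receptors (ERR). RefSeq promoter windows (GRCm38.p6, 250 bases before to 50 bases after the listed start, 300 bases in all) were matched for 69 of the 83 members, taking the first window listed for a gene, and 6 strings of letters were searched on both strands. The NRF1 string GCGCATGCG stood in 8 member windows (11.6%), against 1.81% of 27025 windows of all genes. This string was shortened by 1 letter after a first search of the windows, so its contrast was not fixed beforehand. The YY1 string AAGATGGCG stood in 7 (10.1%, against 1.49%), and the ERR string TCAAGGTCA in 2 (2.90%, against 0.407%). The GABP string CCGGAAGT stood in 5 (7.25%, against 4%). These counts describe letters in a window and say nothing of binding. Of the 69 members, 21 held any of these 4 strings and 1, Uqcr11, held more than 1. The same overlap was not counted over the windows of all genes. The SP1 string GGGCGGG stood in 24 members (34.8%, against 25.8%) and the TATA string TATAAAA in 3 (4.35%, against 5.78%).

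The windows shown are those of the most abundant member with each of the NRF1, GABP, YY1, ERR and SP1 strings. The window of Cox8b, a muscle isoform listed at 0 in every kept cell and well, is added. Atp5l and Ndufa7, which also hold the TATA string and had a mean well level above FPKM 1, are not shown. Each reads 5′ to 3′ along the gene's own strand, with the matched string or its reverse complement in capitals.
Uqcrc1, chr9:108936398-108936697, plus strand: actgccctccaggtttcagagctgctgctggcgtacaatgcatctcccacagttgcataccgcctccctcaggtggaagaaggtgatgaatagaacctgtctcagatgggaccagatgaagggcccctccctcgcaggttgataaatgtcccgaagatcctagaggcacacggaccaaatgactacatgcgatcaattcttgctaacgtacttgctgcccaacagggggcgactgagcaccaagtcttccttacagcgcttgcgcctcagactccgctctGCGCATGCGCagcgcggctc
Cox8a, chr19:7217567-7217866, minus strand: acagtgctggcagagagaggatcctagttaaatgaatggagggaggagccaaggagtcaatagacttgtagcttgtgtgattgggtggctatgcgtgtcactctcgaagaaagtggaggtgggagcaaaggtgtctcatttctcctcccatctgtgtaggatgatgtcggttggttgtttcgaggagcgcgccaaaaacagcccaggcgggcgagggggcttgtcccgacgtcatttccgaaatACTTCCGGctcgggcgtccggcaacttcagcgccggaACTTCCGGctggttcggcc
Atp5j2, chr5:145191492-145191791, minus strand: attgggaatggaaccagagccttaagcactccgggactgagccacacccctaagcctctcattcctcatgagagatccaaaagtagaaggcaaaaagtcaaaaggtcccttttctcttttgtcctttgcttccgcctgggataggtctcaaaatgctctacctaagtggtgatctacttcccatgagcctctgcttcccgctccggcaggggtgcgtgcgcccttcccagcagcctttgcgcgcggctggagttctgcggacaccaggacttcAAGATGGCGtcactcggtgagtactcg
Atp5g3, chr2:73911277-73911576, minus strand: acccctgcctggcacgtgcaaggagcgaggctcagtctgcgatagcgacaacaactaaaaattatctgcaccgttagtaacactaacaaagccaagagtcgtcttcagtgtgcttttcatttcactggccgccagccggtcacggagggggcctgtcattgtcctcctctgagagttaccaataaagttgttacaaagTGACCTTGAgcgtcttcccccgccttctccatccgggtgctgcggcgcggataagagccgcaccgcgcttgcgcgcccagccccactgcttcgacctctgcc
Atp5b, chr10:128083057-128083356, plus strand: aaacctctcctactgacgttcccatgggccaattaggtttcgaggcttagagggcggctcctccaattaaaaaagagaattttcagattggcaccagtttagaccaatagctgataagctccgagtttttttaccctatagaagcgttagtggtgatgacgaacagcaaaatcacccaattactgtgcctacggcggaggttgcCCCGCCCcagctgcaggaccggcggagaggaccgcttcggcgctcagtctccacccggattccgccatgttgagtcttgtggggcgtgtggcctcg
Cox8b, chr7:140900397-140900696, minus strand: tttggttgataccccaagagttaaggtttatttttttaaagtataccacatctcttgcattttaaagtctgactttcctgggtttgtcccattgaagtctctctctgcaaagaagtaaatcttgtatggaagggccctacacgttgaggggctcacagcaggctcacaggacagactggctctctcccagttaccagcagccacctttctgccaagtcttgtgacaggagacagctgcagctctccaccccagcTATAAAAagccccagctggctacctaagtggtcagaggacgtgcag
In the Uqcrc1 window the capitals mark the NRF1 string on both strands, which overlap, in Cox8a a pair of GABP strings, in Atp5j2 the YY1 string, in Atp5g3 the ERR string, in Atp5b the SP1 string and in Cox8b the TATA string. Uqcrc1, Cox8a, Atp5j2, Atp5g3 and Atp5b were each above FPKM 100 in all 4 wells.

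Levels are given as FPKM, in which reads are divided by transcript length and by the size of the library. A gene counted as detected above FPKM 1, and a cell was kept with at least 1000 detected genes, which left 80 KO-labelled CD8, 72 WT CD8, 73 KO-labelled CD4 and 79 WT CD4 cells. The median number of genes detected per kept cell was 2508 on the KO-labelled CD8 plate, 3168 on the WT CD8 plate, 2218 on the KO-labelled CD4 plate and 2045 on the WT CD4 plate. Cells above 4000 genes made up 36.1% of the WT CD8 cells and 5.06% to 7.50% of the cells of the other plates. Another 9 WT CD8 cells had a summed FPKM under 300000, against 1 or 2 on each other plate, and these cells stand apart below. Cd3d, Cd3e and Cd3g were each detected in 83.5% to 97.2% of cells on every plate. Cd4 was detected in 84.9% and 89.9% of cells on the CD4 plates, against 0% and 5.56% on the CD8 plates. Cd8a was detected in 4.11% and 5.06% of cells on the CD4 plates, against 90% and 84.7% on the CD8 plates, and Cd8b1 in 28.8% and 30.4% against 82.5% and 88.9%. At least 2 of 4 macrophage and monocyte markers were detected in 0% of KO-labelled CD8, 0% of WT CD8, 5.48% of KO-labelled CD4 and 2.53% of WT CD4 cells, and at least 2 of 4 dendritic markers in 2.50% to 6.94% by plate. These cells were kept, and their part in the results was not tested. The targeted gene, Il27ra, had a signal above FPKM 1 on the KO-labelled CD8 plate too, in 61.3% of cells against 65.3% of WT CD8 cells. On the CD4 plates this share was 47.9% with the KO label and 43% without it. In the wells it had 85.3 FPKM in the KO-labelled and 157.02 in the WT CD8 well, and 72.7 in the KO-labelled and 243.4 in the WT CD4 well, so both KO-labelled wells were lower without being at 0. Values per gene do not show whether reads fall in the deleted part, so the genotype is given as a label.

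The population wells held nearly the whole machinery at high levels. Of the 83 members, 75 were above FPKM 1 in all 4 wells and 65 were above FPKM 100 in all 4, while 6 were listed at 0 in all 4. The order of the members was nearly the same in each well, with Spearman's rho across the 83 genes of 0.960 to 0.975 over the 6 pairs of wells. Among the 75 members, the highest well was under 2 times the lowest for 67, and the highest was the WT CD8 well for 46. Neither count was made over all genes.

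Complex V held the largest part of the summed member FPKM in each well, 33.3% in the KO-labelled CD8 well, 32.9% in the WT CD8 well, 31.8% in the KO-labelled CD4 well and 32.1% in the WT CD4 well. Atp5b (chr10:128083273-128090391, plus strand) encodes the catalytic beta subunit of the ATP synthase. It had the highest mean well level of all members, with 2067 FPKM in the KO-labelled CD8 well, 2445 in the WT CD8 well, 2068 in the KO-labelled CD4 well and 2286 in the WT CD4 well. Atp5a1, its partner alpha subunit, had 1155 FPKM in the KO-labelled CD8 well, 1282 in the WT CD8 well, 1226 in the KO-labelled CD4 well and 1346 in the WT CD4 well. Both genes lay within a narrow band across the wells, with the WT CD8 well highest for Atp5b and the WT CD4 well highest for Atp5a1. Atp5e, the small epsilon subunit of the central stalk, was wider: it had 348.9 FPKM in the KO-labelled CD8 well, 668 in the WT CD8 well, 327.8 in the KO-labelled CD4 well and 405 in the WT CD4 well, so the WT CD8 well stood above the other three.

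Complex IV, cytochrome c oxidase, came next with complex I. Cox4i1 (chr8:120668222-120674207, plus strand), the regulatory subunit 4 of most tissues, had 1916 FPKM in the KO-labelled CD8 well, 2139 in the WT CD8 well, 2184 in the KO-labelled CD4 well and 2141 in the WT CD4 well. Cox8a (chr19:7215153-7217616, minus strand), a small structural subunit, had 1088 FPKM in the KO-labelled CD8 well, 1599 in the WT CD8 well, 883 in the KO-labelled CD4 well and 1015 in the WT CD4 well. Cox4i1 was nearly level in the 4 wells, whereas Cox8a was highest in the WT CD8 well.

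Complex III levels were led by Uqcrh (chr4:116066965-116075071, minus strand), the hinge protein near cytochrome c1, with 1055 FPKM in the KO-labelled CD8 well, 969 in the WT CD8 well, 1058 in the KO-labelled CD4 well and 1206 in the WT CD4 well. Uqcrc1 (chr9:108936633-108949623, plus strand), a core protein of the complex, had 683 FPKM in the KO-labelled CD8 well, 831 in the WT CD8 well, 969.7 in the KO-labelled CD4 well and 1157 in the WT CD4 well. For both the WT CD4 well was the highest, and for Uqcrc1 the CD4 wells were both above the CD8 wells.

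Complex I subunits were lower one by one but numerous, and together they held 24.4% to 25.9% of the summed member FPKM of a well. Ndufb7 (chr8:83566671-83571626, plus strand), an accessory subunit of the membrane arm, had 357.6 FPKM in the KO-labelled CD8 well, 502 in the WT CD8 well, 420.5 in the KO-labelled CD4 well and 481 in the WT CD4 well. Ndufb8 (chr19:44548572-44555440, minus strand), another membrane-arm subunit, had 318.4 FPKM in the KO-labelled CD8 well, 565 in the WT CD8 well, 365.7 in the KO-labelled CD4 well and 451 in the WT CD4 well. Each was lowest in the KO-labelled CD8 well and highest in the WT CD8 well. Ndufs5 was the complex I gene with the widest spread, with 101.3 FPKM in the KO-labelled CD8 well, 232.6 in the WT CD8 well, 66.3 in the KO-labelled CD4 well and 43.4 in the WT CD4 well.

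Complex II, succinate dehydrogenase, is the only complex built wholly from nuclear genes and also acts in the tricarboxylic acid cycle. Its iron-sulphur subunit Sdhb (chr4:140961203-140979193, plus strand) had 450.3 FPKM in the KO-labelled CD8 well, 810.1 in the WT CD8 well, 655 in the KO-labelled CD4 well and 667 in the WT CD4 well. Its flavoprotein subunit Sdha (chr13:74322254-74350280, minus strand) had 429 FPKM in the KO-labelled CD8 well, 447 in the WT CD8 well, 455 in the KO-labelled CD4 well and 405 in the WT CD4 well, which are close to each other. Sdhb and Sdha stood above the 2 membrane anchors, Sdhc and Sdhd, in each well. Many small subunits have processed pseudogenes, and the library protocol as described does not mark strand, so reads shared with such copies or with overlapping genes could be split by the counting and the levels of single genes are uncertain to that extent.

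**Figure D1:**
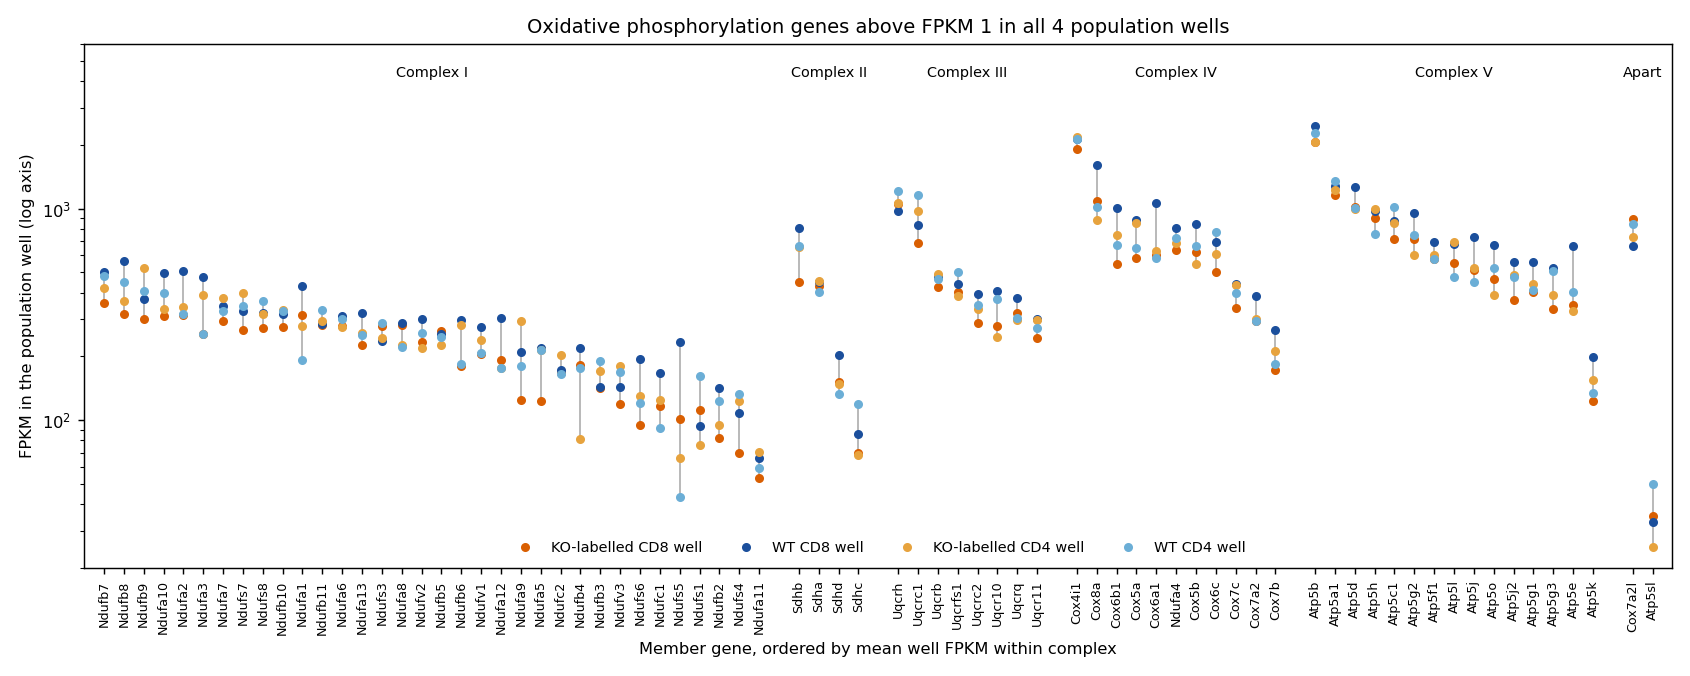
FPKM (log axis) of 74 of the 75 members above FPKM 1 in all 4 population wells, grouped by complex and ordered by mean well level, with 1 point per well and a grey line over their range. Complex V and the leading genes of complexes III and IV reach about FPKM 1000 or more, from Atp5b at 2067 to 2445 FPKM, and most genes vary under 2-fold between wells.

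In single cells the same genes were found in only a part of the cells. Atp5b was detected in 87.5% of KO-labelled CD8 cells, 84.7% of WT CD8 cells, 93.2% of KO-labelled CD4 cells and 86.1% of WT CD4 cells. Cox4i1 was detected in 88.8% of KO-labelled CD8 cells, 79.2% of WT CD8 cells, 83.6% of KO-labelled CD4 cells and 81% of WT CD4 cells. Across members, the share of cells followed the level in the well of the same plate, with Spearman's rho of 0.835 over 76 genes for KO-labelled CD8, 0.817 over 77 for WT CD8, 0.836 over 75 for KO-labelled CD4 and 0.798 over 76 for WT CD4. Genes of lower level were caught in fewer cells. Sdhb was detected in 55% of KO-labelled CD8 cells, 59.7% of WT CD8 cells, 45.2% of KO-labelled CD4 cells and 45.6% of WT CD4 cells. Of the 83 members, 75 were detected in at least 20% of the kept cells of 1 plate or more.

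The plates differed in how often members were caught. Among those 75 members, the share of cells was highest on the WT CD8 plate for 65 and lowest on the WT CD4 plate for 55. The median number of genes detected per cell was also highest on the WT CD8 plate (3168) and lowest on the WT CD4 plate (2045). The same counts were not made over all genes, so this order is not shown to be particular to the members. For complex I the median share over its 35 genes was 41.3% on the KO-labelled CD8 plate, 55.6% on the WT CD8 plate, 31.5% on the KO-labelled CD4 plate and 25.3% on the WT CD4 plate. For complex V, over 15 genes, it was 62.5%, 72.2%, 63% and 53.2% on the same plates. At least 1 gene of each of the 5 complexes was detected together in 83.8% of KO-labelled CD8 cells (exact 95% binomial interval 73.8 to 91.1), 77.8% of WT CD8 cells (66.4 to 86.7), 75.3% of KO-labelled CD4 cells (63.9 to 84.7) and 75.9% of WT CD4 cells (65 to 84.9). All intervals given here cover counting error within a plate only and compare no conditions. All 4 complex II genes were detected together in 6.25% of KO-labelled CD8 cells (2.06 to 14), 27.8% of WT CD8 cells (17.9 to 39.6), 4.11% of KO-labelled CD4 cells (0.856 to 11.5) and 2.53% of WT CD4 cells (0.308 to 8.85). The WT CD8 plate, which has the largest share here, also has the largest share of cells above 4000 genes (36.1%), and the part of gene number in this share was not tested.

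The number of members detected moved with the number of all genes detected in the cell. A kept cell held a median of 37.5 members on the KO-labelled CD8 plate (range 2 to 74), 53 on the WT CD8 plate (1 to 75), 30 on the KO-labelled CD4 plate (8 to 76) and 26 on the WT CD4 plate (3 to 76). Across cells, Pearson's r between members and genes detected was 0.908 over 80 KO-labelled CD8 cells, 0.927 over 72 WT CD8 cells, 0.906 over 73 KO-labelled CD4 cells and 0.892 over 79 WT CD4 cells. The members are themselves part of the gene number, and the cells of a plate share its preparation, so these are descriptions. Among cells with 2000 to 2499 genes the median was 32 members on the KO-labelled CD8 plate (26 cells), 31 on the WT CD8 plate (14), 30 on the KO-labelled CD4 plate (29) and 28.5 on the WT CD4 plate (28). From 4000 genes upward it was 68.5 (6 cells), 70 (26), 71 (5) and 70 (4) on the same plates. From 2000 genes upward the plates lay close together at like gene numbers. Below that the WT CD8 cells were lower, with a median of 2 members in 10 cells of 1000 to 1499 genes (9 to 13 on the other plates) and 13 in 3 cells of 1500 to 1999 genes (19 to 22).

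**Figure D2:**
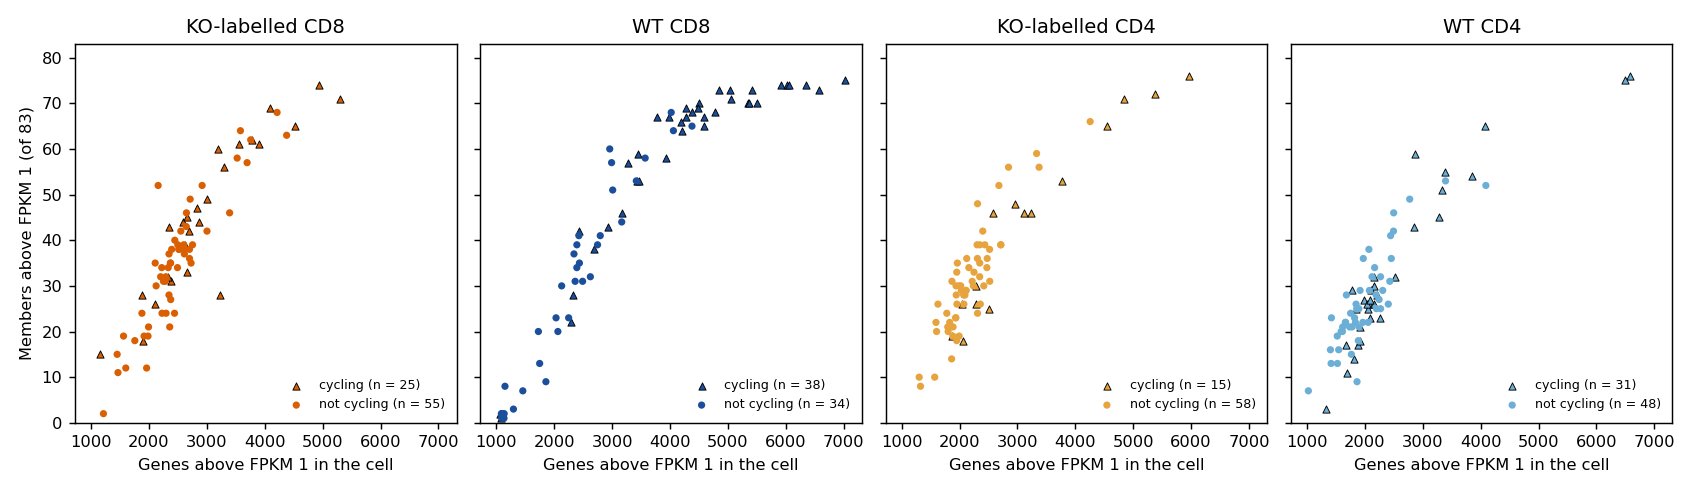
Members detected (of 83, vertical axis) against genes detected (horizontal axis) in each kept cell, with a panel per plate, triangles for cells with at least 3 of 8 cell cycle genes detected and circles for the others. The cells of each plate lie along a rising band, and the WT CD8 panel holds 26 cells from 4000 genes upward where the other panels hold 4 to 6.

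**Figure D3:**
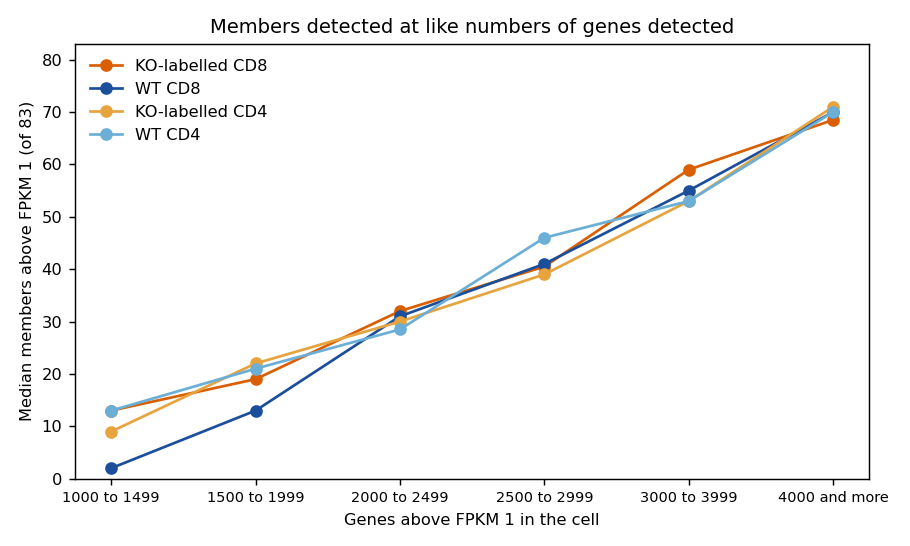
Median number of members detected (vertical axis) in cells grouped by the number of genes detected (horizontal axis), with 1 line per plate. From 2000 genes upward the lines lie close together, from about 30 members at 2000 to 2499 genes to about 70 from 4000 genes.

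The part of all FPKM that the members took was less tied to genes detected than the count of members, but still tied to them. Pearson's r across cells was 0.648 for KO-labelled CD8, 0.785 for WT CD8, 0.539 for KO-labelled CD4 and 0.482 for WT CD4. In WT CD8 cells the median part was 0.22% at 1000 to 1499 genes and 2.54% from 4000 genes. The members' part had a median of 1.64% of the summed FPKM in KO-labelled CD8 cells, 1.95% in WT CD8 cells, 1.72% in KO-labelled CD4 cells and 1.61% in WT CD4 cells. How far gene number enters these medians was not tested. The interquartile ranges over cells were 1.33% to 1.93%, 1.61% to 2.47%, 1.33% to 1.92% and 1.41% to 1.90%, in the same order of plates. The population wells were higher than the median cell of their plate, at 2.07%, 2.59%, 2.04% and 2.14%, and the WT CD8 well was again the highest. Without the 9 low-sum cells the WT CD8 median was 2.08%. In those 9 cells the members took 0.0017% to 2.54% of the FPKM.

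**Figure D4:**
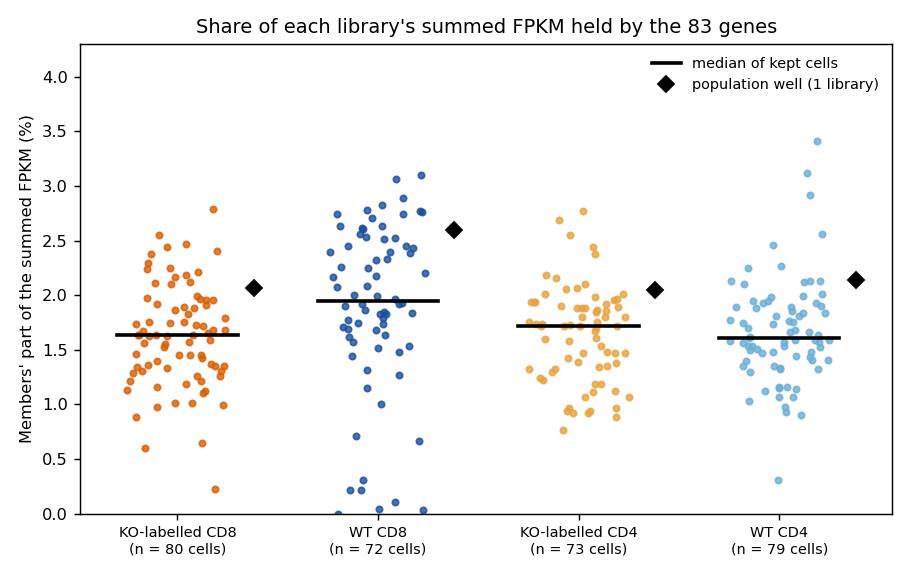
Members' part of the summed FPKM (percent, vertical axis) in each kept cell by plate, with a black line at the median of cells and a diamond for the population well. The WT CD8 plate has the highest median, 1.95%, and the highest well, 2.59%, and also holds most of the cells near 0.

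Cycling cells were called by detection, and the median number of genes detected was highest among WT CD8 cells. Cells with at least 3 of 8 cell cycle genes detected were 31.3% of KO-labelled CD8 (21.3 to 42.6), 52.8% of WT CD8 (40.7 to 64.7), 20.5% of KO-labelled CD4 (12 to 31.6) and 39.2% of WT CD4 cells (28.4 to 50.9). On the CD8 plates the members took a larger part of the FPKM in cycling cells, with a median of 1.96% against 1.52% in the other KO-labelled CD8 cells and 2.41% against 1.66% in the other WT CD8 cells. On the CD4 plates the medians were 1.86% against 1.71% for KO-labelled and 1.54% against 1.63% for WT. Cycling WT CD8 cells also had a median of 4328 genes, against 2375 in the other WT CD8 cells. The part of gene number in these differences was not tested.

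Between the CD8 plates, the oxidative phosphorylation genes were lower on the KO-labelled plate. For each gene log2(FPKM + 1) was averaged over the kept cells of a plate and the WT mean was subtracted from the KO-labelled mean, so that a cell with no reads counts as 0 and a difference holds both level and detection. With 1 plate per group there is no replicate error and no test. Genes entered when detected in at least 20% of the cells of 1 group, and a difference of at least 1 on the log2 scale is set beside the share of all genes that passed it. Of the 75 members that entered, 71 were lower and 4 higher, where 78.1% of all genes were lower. The members' median was -0.91, and 30 were lower by 1 or more, where 19.5% of all 6599 genes were. Higher by 1 or more were 0 members, where 3% of genes were. The median of all genes was -0.46, so the members lay below it by 0.45. Over all 83 members with no filter the median was -0.77, with 73 lower and 5 higher.

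The median by complex was -0.94 for complex I, -0.56 for complex II, -1.25 for complex III, -1.13 for complex IV and -0.77 for complex V. Ndufc2, a small complex I subunit, was lowest at -2.63. Its share of cells above FPKM 1 was 23.8% (14.9 to 34.6) for KO-labelled and 58.3% (46.1 to 69.8) for WT CD8, while its wells were nearly equal at 167.5 and 172.7 FPKM. Next came Uqcr10, a small complex III subunit, at -2.12, then the complex I genes Ndufb5 at -2.02 and Ndufb10 at -1.94, and Uqcrb of complex III at -1.94. The 5 at the other end were Cox4i1 at 0.41, the complex III core protein Uqcrc2 at 0.38, Cox7a2l at 0.26, Atp5a1 at 0.10 and Atp5f1, a peripheral stalk subunit, at -0.06. Cox4i1 shows how detection and level can part: its share of cells above FPKM 1 was 88.8% on the KO-labelled and 79.2% on the WT CD8 plate, but its mean FPKM was 758 against 1025.

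These CD8 values depended on which cells were set against each other. With cells of 1000 to 4000 genes the members' median was 0.33, against 0.22 over all genes, and without cycling cells it was 0.41, against 0.24. The first of these sets kept all 9 WT CD8 cells of low summed FPKM (1056 to 1456 genes) among its 46 WT cells. Cells of that kind also stayed in the set without cycling cells, and neither limit was combined with leaving them out. In 41 pairs of cells matched to within 100 detected genes the members' median was 0.035, against 0.05 over all genes, with 38 members higher and 36 lower. Without cells of a summed FPKM under 300000 it was -1.44, against -0.70, with 0 members higher and 75 lower. In the matched cells complex IV had a median of -0.51 (4 of 11 genes higher), complex V 0.23 (9 of 15) and complex I 0.00 (18 of 35). Of the genes named above, Ndufc2 was at -1.06 there, Uqcr10 at -1.38, Ndufb5 at -1.03, Ndufb10 at -1.83 and Uqcrb at -0.87. At the other end Cox4i1 was at 0.68, Uqcrc2 at 2.29, Cox7a2l at 0.75, Atp5a1 at 0.71 and Atp5f1 at 1.04 in the matched cells.

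The CD8 wells differed in the same direction, with a median nearer to 0 but a like distance from the median of all genes. The members' median was -0.39, against 0.04 over all genes, with 71 of 77 members lower, where 48.4% of all genes were. The members lay below the median of all genes by 0.42 in the wells, beside 0.45 in cells. Lower by 1 or more were 3 members, Cox6b2, Ndufs5 and Ndufs6, where 16.8% of all 11875 genes were, so the share of members past that size lay under the background. Cox6b2 was listed at 0 in the KO-labelled well and at 4.56 FPKM in the WT well. The 12 complex IV genes and the 15 complex V genes compared were each lower in the KO-labelled well, with medians of -0.51 and -0.39. Cox7a2l was the highest in the KO-labelled well at 0.43, with 893 against 662 FPKM. Of the 75 members compared in cells, 66 were lower in both cells and wells, a count not made over all genes. The wells also held RNA of other cells, which differed between them. The summed FPKM of 4 macrophage and monocyte markers was 781 in the KO-labelled CD8 well and 1835 in the WT CD8 well, that of 4 dendritic markers 1887 and 4231, and that of an erythroid marker 0 and 4230. The 4 melanoma markers summed to 3.46 and 51.9 FPKM, and the 3 B cell markers were listed at 0 in both wells. Their part in the well differences was not tested, and in a well fewer cells of a type and less RNA per cell cannot be told apart.

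Between the CD4 plates the members were higher on the KO-labelled plate. Of the 72 members compared, 57 were higher and 15 lower, where 62.5% of all genes were higher, and the median was 0.55 against 0.16 over all genes. Higher by 1 or more were 14, where 8.75% of all 4687 genes were, and lower by 1 or more was Uqcrc2 alone, where 1.51% were. The median over all 83 members with no filter was 0.42. Complex II was the only complex with a median below 0, at -0.13 with 1 of 3 genes higher. Complex III had a median of 0.31 with 4 of 8 genes higher, while complex I had 0.55, complex IV 0.57 and complex V 0.60.

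Cox5a, a complex IV subunit facing the matrix, was the highest at 2.02, with a share of cells above FPKM 1 of 58.9% (46.8 to 70.3) on the KO-labelled and 35.4% (25 to 47) on the WT plate, with well levels of 853 and 653 FPKM. Uqcrc1 followed at 1.81, then Atp5d, the delta subunit of the ATP synthase, at 1.56, the complex I gene Ndufa10 at 1.53 and Atp5g1, a gene for the c-subunit, at 1.46. For Uqcrc1 the wells ran the other way, with 969.7 FPKM in the KO-labelled and 1157 in the WT CD4 well. Among the lowest were Uqcrc2 at -1.25, Cox7a2l at -0.81, Ndufb5 at -0.71 and Uqcr10 at -0.66.

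In 52 matched pairs of CD4 cells the members' median was 0.23, against 0.00 over all genes, with 37 of 65 higher. By complex, over the members compared above, complex II had -0.75 (1 of 3 genes higher) and complex III -0.43 (3 of 8) in the matched cells. Complex I had 0.23 (22 of 34), complex IV 0.37 (6 of 11) and complex V 0.38 (10 of 15). There Cox5a was at 0.82, Uqcrc1 at 1.86, Atp5d at 0.81, Ndufa10 at 1.61 and Atp5g1 at 0.60. At the other end Uqcrc2 was at -2.01, Cox7a2l at -0.85, Ndufb5 at -1.22 and Uqcr10 at -1.25 in the matched cells. The CD4 wells showed no common direction, with 37 members higher and 39 lower of 76 and a median of -0.01. Of all genes 50.3% were higher there. No member was higher by 1 or more, where 19.9% of all 11746 genes were, and 3 were lower by 1 or more (Atp5s, Ndufb4 and Ndufs1), where 16.4% were. Of the 72 members compared in cells, 30 were higher in both cells and wells and 27 were higher in cells and lower in the well. These counts were not made over all genes. The macrophage and monocyte markers summed to 3159 FPKM in the KO-labelled CD4 well and 61.7 in the WT CD4 well, and the dendritic markers to 3112 and 150.2. Their part in these differences was not tested.

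Side by side, 55 of the 72 members compared in both lineages were lower on the KO-labelled plate in CD8 cells and higher on it in CD4 cells, or 76.4%, where 47.3% of the 4531 genes compared in both were. Another 13 were lower in both lineages, 2 were higher in both and 2 were higher in CD8 and lower in CD4. In wells, 37 of 76 members (48.7%) were lower in CD8 and higher in CD4, where 24% of 10815 genes were. Another 33 were lower in both lineages, 6 were higher in CD8 and lower in CD4, and 0 were higher in both. The CD4 wells by themselves had no common direction, with 37 members higher and 39 lower. The difference between the lineages was not tested, since each contrast rests on a pair of plates.

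Between the WT plates the members were lower in CD4 cells than in CD8 cells, and this was the widest of the 4 comparisons. Of 75 members, 74 were lower and 1 was higher, where 87.1% of all genes were lower, and the median was -1.83 against -0.76 over all genes. Lower by 1 or more were 69, where 37.2% of all 6524 genes were, and 0 were higher by 1 or more, where 2.16% were. With no filter on members the median was -1.70. The medians by complex lay between -1.69 for complex II and -2.10 for complex IV, and each of the 35 complex I genes was lower by 1 or more.

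Ndufb10, a membrane-arm subunit of complex I, was the lowest at -3.35. It was detected in 22.8% (14.1 to 33.6) of CD4 and 68.1% (56 to 78.6) of CD8 cells, while its wells were nearly equal at 327.7 and 315.9 FPKM. Ndufb7 was at -2.83, Uqcrfs1, the Rieske iron-sulphur protein of complex III, at -2.73, and the complex IV subunits Cox6a1 and Ndufa4 at -2.58 and -2.57. Cox7a2l alone was higher, at 0.40, and the next were Cox4i1 at -0.24, Atp5sl at -0.31, Atp5b at -0.41 and Uqcrc2 at -0.42. In 29 matched pairs of cells the members' median was 0.15, against 0.07 over all genes, with 43 higher and 31 lower. There Ndufb10 was at -1.48, Ndufb7 at -1.39, Uqcrfs1 at -1.44, Cox6a1 at -0.30 and Ndufa4 at -0.90. At the other end Cox7a2l was at 2.19, Cox4i1 at 1.35, Atp5sl at 0.29, Atp5b at 0.70 and Uqcrc2 at 2.15 in the matched cells. With cells of 1000 to 4000 genes the members' median was -0.60, against -0.21 over all genes, without cycling cells -0.48, against -0.25, and without cells of a summed FPKM under 300000 it was -2.43, against -0.98. These limits were not combined. The WT wells gave -0.21, against 0.04 over all genes, with 56 of 77 members lower in CD4, where 48.3% of all genes were. Lower by 1 or more were 3 members, where 20.2% of 11845 genes were. Macrophage and monocyte markers summed to 61.7 FPKM in the WT CD4 well and 1835 in the WT CD8 well, dendritic markers to 150.2 and 4231, the erythroid marker to 4.54 and 4230, and melanoma markers to 127.2 and 51.9. Their part was not tested.

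Between the KO-labelled plates the lineages lay closer. Of 73 members, 17 were higher and 56 lower in CD4 cells, where 65.3% of all genes were lower, and the median was -0.45 against -0.21 over all genes, and 10 were lower by 1 or more, where 11.1% of all 5286 genes were. Higher by 1 or more were 0, where 4.63% were. The share of members past that size was near the background. With no filter on members the median was -0.29. Uqcrc2 was the lowest at -2.05, detected in 32.9% (22.3 to 44.9) of CD4 and 56.2% (44.7 to 67.3) of CD8 cells. The next were Ndufb9 at -1.69, Atp5f1 at -1.69, Sdha at -1.37 and Cox7b at -1.36. The highest were Uqcrb at 0.89, Atp5l, a membrane subunit of the ATP synthase, at 0.86, Atp5d at 0.51, Atp5b at 0.43 and Ndufb3 at 0.43. In 52 matched pairs of cells the median was 0.20, against -0.0040 over all genes, with 44 members higher and 29 lower. There Uqcrc2 was at -2.02, Ndufb9 at -0.19, Atp5f1 at -1.10, Sdha at -0.35 and Cox7b at -0.79. At the other end Uqcrb was at 1.73, Atp5l at 1.64, Atp5d at 1.48, Atp5b at 0.46 and Ndufb3 at 1.12 in the matched cells. In wells the median was 0.13, against 0.02 over all genes, with 52 of 76 members higher in CD4, where 51% of all genes were. The members' median was -0.016 when each well was rescaled to the same summed FPKM. One member, Ndufa9, was higher by 1 or more, where 18.5% of 11857 genes were, and 2 were lower by as much (Atp5s and Ndufb4), where 18.1% were. Macrophage and monocyte markers summed to 3159 FPKM in the KO-labelled CD4 well and 781 in the KO-labelled CD8 well, dendritic markers to 3112 and 1887 and melanoma markers to 29.4 and 3.46, and their part was not tested.

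**Figure D5:**
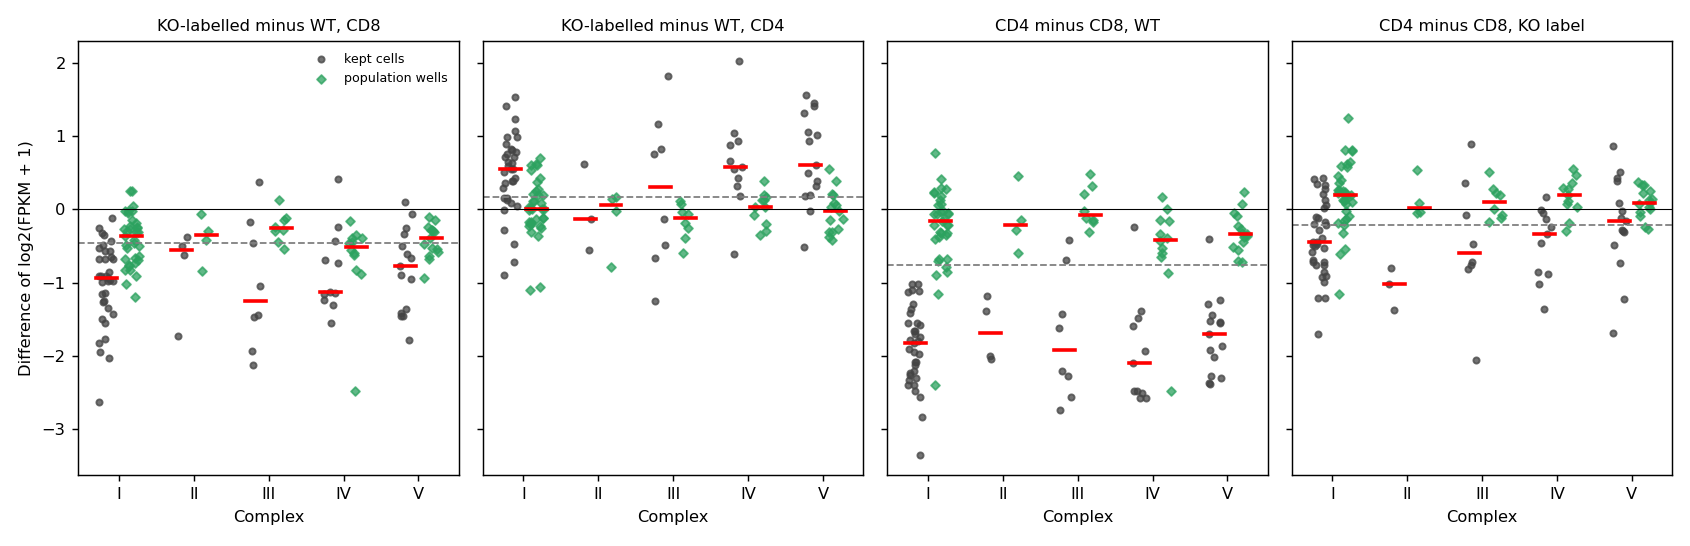
Difference of log2(FPKM + 1) for each member compared (vertical axis), by complex, in kept cells (grey circles) and population wells (green diamonds), with a panel per comparison, a red bar at each complex median and a dashed line at the median of all genes in cells. The grey points lie mostly below 0 between the CD8 plates and between the WT lineages and mostly above 0 between the CD4 plates, and the green points lie nearer to 0.

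Several complex IV and V subunits have paralogs used in particular tissues, and among the members the general forms were the ones widely detected in these T cells. Cox6a2, left out by the rule, was not examined. Cox7b2, Cox8b, Cox8c and Ndufa4l2 were each detected in 0 of the kept cells of all plates together, a count that limits the share of cells above FPKM 1 to 0.987% at most, not the share expressing the gene, and were listed at 0 in all 4 wells. Cox4i2, the hypoxia and lung isoform of subunit 4, was detected in 1 cell, the testis isoform Cox6b2 in 1 and the muscle isoform Cox7a1 in 3. The general partners were abundant. Cox7a2 had 294.6 FPKM in the KO-labelled CD8 well, 385.3 in the WT CD8 well, 299.9 in the KO-labelled CD4 well and 292.8 in the WT CD4 well, Cox6b1 had 547 FPKM in the KO-labelled CD8 well, 1009 in the WT CD8 well, 753 in the KO-labelled CD4 well and 671 in the WT CD4 well, and Ndufa4, a subunit of complex IV despite its name, had 634 FPKM in the KO-labelled CD8 well, 811 in the WT CD8 well, 685 in the KO-labelled CD4 well and 725 in the WT CD4 well. Each of these was highest in the WT CD8 well.

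The c-ring of the ATP synthase is made of 1 protein encoded by 3 genes, Atp5g1, Atp5g2 and Atp5g3, which differ in their import sequences. Atp5g2 held the largest part of their summed FPKM in each well, 49.4% in the KO-labelled CD8 well, 46.7% in the WT CD8 well, 42% in the KO-labelled CD4 well and 44.9% in the WT CD4 well. Atp5g1 held 24.7% to 30.7% and Atp5g3 23% to 30.4%. At least 1 of the genes was found in 92.5% of KO-labelled CD8 cells (84.4 to 97.2), 86.1% of WT CD8 cells (75.9 to 93.1), 91.8% of KO-labelled CD4 cells (83 to 96.9) and 83.5% of WT CD4 cells (73.5 to 90.9). All 3 were detected together in 32.5%, 51.4%, 31.5% and 16.5% of cells on the same plates.

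The 3 genes set apart differed in level. Cox7a2l (chr17:83501918-83517330, minus strand) had 893 FPKM in the KO-labelled CD8 well, 662 in the WT CD8 well, 732 in the KO-labelled CD4 well and 845 in the WT CD4 well, with the KO-labelled CD8 well highest and the WT CD8 well lowest. It was detected in 76.2% of KO-labelled CD8 cells, 76.4% of WT CD8 cells, 71.2% of KO-labelled CD4 cells and 74.7% of WT CD4 cells, a narrow range. Atp5sl was detected in 9.59% to 20.8% of cells by plate and Atp5s in 6 cells.

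Lists of metabolic and other mitochondrial genes outside the members give the setting of these values. Between the CD8 plates (KO-labelled minus WT, cells), 72 of 76 mitochondrial ribosome genes entered and 69 were lower, with a median of -0.80. Of 36 assembly factors in the matrix 26 entered and 26 were lower (-0.78). All 16 tricarboxylic acid cycle genes entered and 15 were lower (-0.86), led by citrate synthase, Cs, at -1.75. Of 15 glycolysis genes 13 were lower (-0.75), from Tpi1 at -2.64 to Ldha at 0.64. Of 13 regulators of mitochondrial biogenesis 8 entered and 5 were lower (-0.53), with the factor Nrf1 lowest at -1.17. The median of all genes was -0.46, with 78.1% of them lower. The biogenesis regulators lay near it, with 3 of 8 higher where 21.9% of all genes were.

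Between the CD4 plates (KO-labelled minus WT, cells) the medians were 0.42 for the mitochondrial ribosome (33 of 44 genes higher), 0.21 for assembly factors (9 of 13), 0.27 for the tricarboxylic acid cycle (11 of 14), 0.50 for glycolysis (11 of 14) and -0.07 for the biogenesis regulators (3 of 6), beside 0.16 over all genes with 62.5% higher. In CD4 against CD8 cells of the WT plates they were -1.43 (0 of 72 higher), -0.99 (1 of 26), -1.40 (0 of 16), -0.87 (3 of 15) and -0.68 (0 of 7) for the same lists, beside -0.76 over all genes with 12.9% higher. Glycolysis and the biogenesis regulators were near that background. In CD4 against CD8 cells of the KO-labelled plates they were -0.36 (11 of 57), -0.36 (1 of 17), -0.22 (3 of 16), 0.09 (9 of 14) and -0.04 (3 of 7), beside -0.21 over all genes with 34.7% higher. In cells the members' own medians were -0.91, 0.55, -1.83 and -0.45 in the same order of comparisons. Each was farther from 0 than those of these lists. Another 6 genes of the machinery that the symbol rule does not match, among them Cyc1 and Cycs, the cytochromes c1 and c, had medians of -1.33, 0.70, -2.03 and -0.47 in these comparisons. In wells 1 of the lists or more lay farther from 0 than the members in every comparison. Glycolysis was at -0.53 between the CD8 wells, beside -0.39 for the members. The tricarboxylic acid cycle was at -0.25 between the CD4 wells (members -0.01). Assembly factors were at -0.24 between the WT wells (members -0.21), and glycolysis at 0.45 between the KO-labelled wells (members 0.13). The comparisons share plates and are not independent of each other.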

How the data were processed

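The authors deposited 1 matrix of TMM-normalized FPKM values, 23420 gene symbols by 380 libraries, made with RSEM, Bowtie and the mm10 genome per the submitters' processing notes, with versions not given in the sources used here. Every column matched a sample title (0 unmatched), and 0 pairs of libraries were identical. The file holds no read counts, so reads per library were not used and the number of genes above FPKM 1 stands for yield. Members were placed by GENCODE M21 (82 of 83) and the RefSeq table (83 of 83). Cells with fewer than 1000 genes above FPKM 1 were left out. Cells were not called for doublets. Differences are of mean log2(FPKM + 1) over cells, or of log2(FPKM + 1) between wells. The pseudocount of 1 understates differences of low genes. Genes were compared when above FPKM 1 in at least 20% of kept cells of 1 group, or in 1 of the 2 wells. With 1 plate per group no test was run and no p-value is given. Intervals on shares are exact (Clopper-Pearson, 95%). Matched pairs of cells lay within 100 genes of each other and were drawn without replacement.

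The NRF1 string was shortened by 1 letter after a first search. Named genes are the 2 most abundant per complex, the 5 highest and 5 lowest per comparison and the isoform sets, except 1 gene that is not reported here. Wide or narrow spreads over wells (Atp5e, Ndufs5, Cox7a2l) and the wells' own extremes were picked after their values were seen. The members and gene lists were chosen with earlier results of these data known. The lists are 76 mitochondrial ribosome, 36 assembly, 16 tricarboxylic acid cycle, 15 glycolysis, 13 biogenesis and 6 further chain genes. Scripts used Python 3.11.15, numpy 2.4.6, pandas 2.3.3, scipy 1.17.1 and matplotlib 3.10.9, and were tested on simulated data.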

Additional observations from a re-analysis of the deposited data

Results flagged for a closer look

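The members' median difference between KO-labelled and WT cells had opposite signs in the lineages: -0.91 in CD8 cells and 0.55 in CD4 cells (log2 scale). The difference between these values was not tested, since each rests on a pair of plates, and in cells matched on detected genes the medians were 0.035 and 0.23.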

How the results depend on the processing

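No paired analysis was possible because each group is 1 plate, and no result comes from a test. A median was taken as moved when it changed by more than 1.5-fold and by more than 0.1, and as turned when its sign changed. Of 84 repeats, 59 stayed, 19 moved and 6 turned, and the cause was not tested. The repeat without low-sum cells was added after the data were seen.

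For KO-labelled minus WT CD8 cells (-0.91), the median was -0.55 with a pseudocount of 10, -0.44 with all cells, -1.39 from 2000 genes, -0.51 as a ratio of mean FPKM and -1.44 without cells of summed FPKM under 300000. It turned to 0.33 with 1000 to 4000 genes, 0.035 in matched cells and 0.41 without cycling cells. These repeats were not combined with leaving out the low-sum cells.

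For KO-labelled minus WT CD4 cells (0.55) it was 0.33 with a pseudocount of 10, 0.23 with all cells, 0.28 from 2000 genes, 0.23 in matched cells and 0.26 as a ratio of means.

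For CD4 minus CD8 WT cells (-1.83) it was -1.10 with a pseudocount of 10, -1.20 with all cells, -0.60 with 1000 to 4000 genes, -0.48 without cycling cells, -0.75 as a ratio of means and 0.15 in matched cells.

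For CD4 minus CD8 KO-labelled cells (-0.45) it was -0.19 with a pseudocount of 10, -0.29 with no filter, -0.25 from 2000 genes, -0.0077 as a ratio of means and 0.20 in matched cells. In the wells 0.13 turned to -0.016 when each well was rescaled to the same summed FPKM.

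Of the medians of the members' part of the summed FPKM, none moved or turned under the repeats run. A percentage cannot change sign, and the plates' medians (1.61% to 1.95%) span less than the 1.5-fold limit, so these labels say little of the order of plates. Without cycling cells the medians were 1.52% for KO-labelled CD8, 1.66% for WT CD8, 1.71% for KO-labelled CD4 and 1.63% for WT CD4. The KO-labelled CD4 plate was then the highest. Without reads per library, how far depth limits detection of single subunits was not tested.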
